A study of Mus musculus with 4 samples.

Results

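ADAM proteins (a disintegrin and metalloprotease) are membrane-anchored surface proteins, and several of them are made only in male germ cells and carried on the sperm surface, where they act in sperm migration through the oviduct and in contact with the egg. They are built with a metalloprotease domain followed by a disintegrin domain. In some members the protease domain keeps the zinc-binding site that catalysis needs, and in others it has lost it. The genes described here are the 6 whose symbols in the deposited expression table are those of Adam genes, namely Adam1a, Adam4, Adam24, Adam26a, Adam30 and Adam32, out of 988 genes in that table. They were taken by symbol, but with earlier results of these data known. The authors' table itself holds genes listed as differing between the genotypes, so that each of the 6 differs is a property of the table.

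Whole testes of male C57BL/6 mice at postnatal day 25 were sequenced, when the earliest germ cells to mature have become round spermatids. Of the mice, 2 were labelled Ptbp2-deficient (cKO, a conditional knockout; 1 library each) and 2 wild type (WT; 1 library each). Ptbp2 encodes a polypyrimidine tract binding protein that regulates splicing. The Cre line, and so the cells in which the gene was deleted, is not given in the sources used here. Expression is given as RPKM, read counts scaled to gene length and library size, and the read depth behind the values is unknown. Ptbp2 itself had 111 and 98.2 RPKM in the 2 libraries with the cKO label, against 65.7 and 66.6 RPKM in the WT libraries. It was thus not lower where the label says deficient, and RPKM over the whole gene does not check a deletion of part of it. The libraries are therefore called labelled cKO throughout, and every direction below rests on that label.

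The codons of the zinc-binding site are shown because they divide the family into members that keep the site and members that do not. Each line gives the 33 coding bases, in GENCODE M21 transcripts of the GRCm38 build, that a protein alignment places at the site. The capitals mark codons for the fixed residues of the site, which are 3 histidines, a glutamate and a glycine. The last line is Adam20, which the expression table lists under the older name 4930529F22Rik.
Adam1a: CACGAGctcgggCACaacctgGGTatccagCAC
Adam24: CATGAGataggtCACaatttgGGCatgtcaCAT
Adam26a: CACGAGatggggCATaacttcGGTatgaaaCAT
Adam30: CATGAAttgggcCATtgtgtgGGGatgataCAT
Adam4: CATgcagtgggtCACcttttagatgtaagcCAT
Adam32: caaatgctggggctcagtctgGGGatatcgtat
Adam20: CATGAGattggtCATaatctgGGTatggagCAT
Adam1a, Adam24, Adam26a, Adam30 and Adam20 hold all 5 fixed residues. Adam4 holds 3 of the 5 and lacks the glutamate that takes part in catalysis, and Adam32 holds 1 of the 5. These are features of the reference sequence and were not measured in the mice.

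The genes also differ in structure and place. Adam32 lies on chromosome 8 (GRCm38, 24836140 to 24948804, minus strand) and its coding sequence is spread over 22 exons. In the other 5 the whole coding sequence lies in 1 exon. Adam24 (chromosome 8, 40675077 to 40682199, plus strand) and Adam26a (chromosome 8, 43568278 to 43576707, minus strand) belong to a group of testis Adam genes known as testases. Adam20 (chromosome 8, 40793273 to 40797303, plus strand) begins 111.1 kb beyond Adam24. Adam1a (chromosome 5, 121518576 to 121545482, minus strand) overlaps Tmem116 on the other strand and Gm42878, Mapkapk5 and the pseudogene Gm15547 on its own. Adam4 (chromosome 12, 81419443 to 81421946, minus strand) overlaps Gm20498 and Cox16 on the same strand, and Adam30 (chromosome 3, 98160630 to 98164169, plus strand) overlaps no annotated gene.

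Reads of some of these genes can be shared with close copies, and how the authors' counting treated such reads, or the strand, is not given in the sources used here. Adam26a aligned with Adam26b at 95.1% identity over 94.2% of its transcript. Adam1a and Adam1b share an identical stretch of 1082 bases, and Adam4 aligned with the pseudogene Gm5746 at 91.6% identity over 88.6% of its transcript. The values of these 3 members are therefore uncertain as to which copy they count. Adam24 was closest to Adam25, at 67.6% identity with no identical stretch over 28 bases, and Adam30 and Adam32 had no match in another gene, so these 3 are the members whose reads are least open to sharing.

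All 6 Adam genes fell in the labelled cKO testes, each to a level below both WT libraries, and they did so by unequal amounts. Adam24 and Adam26a were down to a few percent of the WT level in labelled cKO library 2, while Adam30 kept 41.3% and 33.0% of it in labelled cKO libraries 1 and 2. In limma on log2(RPKM + 1), with Benjamini-Hochberg adjustment over all 988 genes, 6 of 6 were called lower at 0.05, each with an adjusted p of 0.0177. By the same rule 83.9% of all listed genes were called lower, so a count of 6 of 6 is near the background and is not a result about the family. Every labelled cKO value lay below every WT value in 6 of 6, as in 93.6% of the table. The genes had been chosen by the authors on these same libraries, so the test only measures each difference by the variation among mice and lends no independent support to it. Without WT library 1 or without WT library 2, Adam24 and Adam26a were the 2 of 6 still called, against 39.3% and 35.7% of the table.

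The members without the full zinc-binding site are Adam32 and Adam4. Adam32, which encodes a sperm surface protein of the testis, was at 102 and 75.4 RPKM in the labelled cKO libraries, against 312 and 319 RPKM in the WT libraries. Its means were 88.7 ± 18.8 RPKM in labelled cKO and 315 ± 5.37 RPKM in WT (SD, n = 2 each), a limma difference of -1.83 ± 0.30 (SE) on the log2(RPKM + 1) scale. The labelled cKO libraries kept 32.3% and 23.9% of the WT mean, with no overlap between the genotypes. Adam4 was at 2.27 and 1.72 RPKM in the labelled cKO libraries, against 6.49 and 7.04 RPKM in the WT libraries. This was the lowest WT level of the 6, and its limma difference was -1.38 ± 0.28 (SE). Per length of gene, Adam32 stood 44.9 and 43.8 times above Adam4 in the labelled cKO libraries and 48.0 and 45.3 times above it in the WT libraries, so these 2 members kept nearly the same ratio.

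Among the members with the full site, Adam1a encodes the alpha subunit of fertilin, which in the mouse is needed in the testis for other ADAM proteins to reach the sperm surface. It was at 3.66 and 2.00 RPKM in the labelled cKO libraries, against 12.9 and 14.8 RPKM in the WT libraries. Its means were 2.83 ± 1.17 RPKM in labelled cKO and 13.9 ± 1.34 RPKM in WT (SD, n = 2 each), and its limma difference was -1.99 ± 0.34 (SE). Both labelled cKO libraries lay far below WT, and library 2 held 14.4% of the WT mean against 26.3% in library 1.

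Adam24, a testase, was at 3.25 and 0.56 RPKM in the labelled cKO libraries, against 14.6 and 14.4 RPKM in the WT libraries. Its means were 1.91 ± 1.90 RPKM in labelled cKO and 14.5 ± 0.184 RPKM in WT (SD, n = 2 each), a limma difference of -2.59 ± 0.55 (SE). The WT libraries nearly coincided, whereas labelled cKO library 1 held 22.4% of the WT mean and library 2 held 3.87%.

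Adam26a, also a testase, was at 2.15 and 0.39 RPKM in the labelled cKO libraries, against 10.5 and 10.4 RPKM in the WT libraries. The limma difference was -2.45 ± 0.47 (SE). It repeated the pattern of Adam24 closely, with 20.6% of the WT mean in labelled cKO library 1 and 3.73% in library 2. The ratio of Adam26a to Adam24 was 0.661 and 0.696 in the labelled cKO libraries and 0.719 and 0.724 in the WT libraries.

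Adam30 was at 11.8 and 9.44 RPKM in the labelled cKO libraries, against 29.3 and 27.9 RPKM in the WT libraries. Its means were 10.6 ± 1.67 RPKM in labelled cKO and 28.6 ± 1.02 RPKM in WT (SD, n = 2 each), a limma difference of -1.36 ± 0.28 (SE). It kept 41.3% and 33.0% of the WT mean in labelled cKO libraries 1 and 2, the highest shares of the 6.

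**Figure D1:**
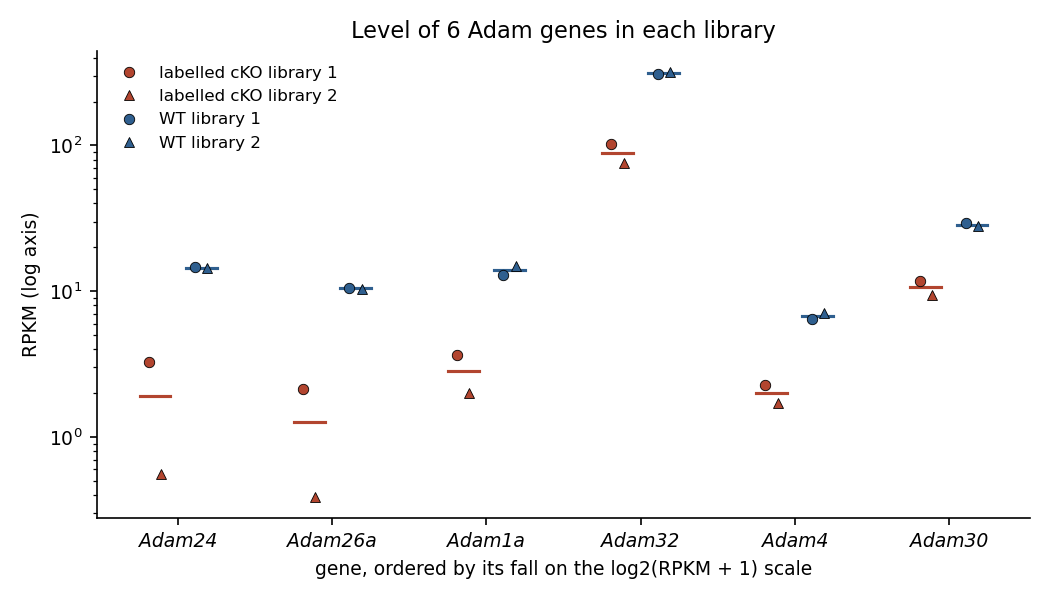
RPKM (log axis) of the 6 Adam genes in each library, labelled cKO in red left of WT in blue, with circles for library 1, triangles for library 2 and a line at the mean of each genotype (n = 2). In every gene both labelled cKO points lie below both WT points, and the gap between the labelled cKO points is widest for Adam24 (3.25 and 0.56 RPKM) and Adam26a (2.15 and 0.39 RPKM).

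Because Adam32 was so much higher than the rest, it set the summed level of the family. The 6 genes summed to 125 and 89.5 RPKM in the labelled cKO libraries, against 385 and 394 RPKM in the WT libraries. Adam32 made up 81.5% and 84.2% of that sum in the labelled cKO libraries and 80.8% and 81.1% in the WT libraries. Its share was thus no lower in labelled cKO, while the other 5 together stood at 23.1 and 14.1 RPKM, against 73.9 and 74.5 RPKM in WT.

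In the authors' deposited table the order of the falls was Adam26a (log2 fold change -3.05), Adam24 (-2.93), Adam1a (-2.30), Adam32 (-1.83), Adam4 (-1.76) and Adam30 (-1.43), each with an adjusted p printed as 0. Their median, -2.07, was close to the median of -1.98 over the 925 genes that the authors' deposited table gives as lower. Log2 fold changes of -2 or below were given by that table for 3 of the 6, against 46.4% of all its genes. On the log2(RPKM + 1) scale the median was -1.91 for the 6, against -1.72 for the 925 genes listed as lower and -1.59 for all 988 genes, and there Adam24 came before Adam26a. Adding 1 to RPKM shrinks the falls of the genes with low levels.

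Neighbours in this order were compared by the ratio of their RPKM within each library, with the log2 ratio in labelled cKO minus that in WT. Adam26a and Adam24 differed by -0.09 ± 0.04 (SE), and Adam32 and Adam4 by -0.07 ± 0.04. Adam24 fell further than Adam1a by -1.07 ± 0.84, Adam1a further than Adam32 by -0.51 ± 0.23, and Adam4 further than Adam30 by -0.34 ± 0.10. In none of these 5 pairs did the RPKM ratios of the genotypes overlap. With 2 mice against 2, though, the exact two-sided permutation p was 0.333 for each, the smallest that the design allows. The order came from fold changes of these same libraries, so the direction of each difference was largely set by the sorting. How often other pairs of genes in the table overlap was not tested. The pair at the ends, Adam26a and Adam30, differed by -2.08 ± 1.07 (exact permutation p = 0.333), and the SE is large because labelled cKO libraries 1 and 2 gave ratios of 0.182 and 0.0413, against 0.358 and 0.373 in the WT libraries. These gaps depend on the scale. On log2(RPKM + 1) the difference between Adam4 and Adam30 shrank to -0.02 ± 0.09 and that between Adam1a and Adam32 to -0.16 ± 0.13, both with overlap, and that between Adam32 and Adam4 grew to -0.46 ± 0.09. Adam24 and Adam26a changed places there, and their ratios overlapped too (-0.14 ± 0.13).

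Taken as a ratio, the labelled cKO libraries differed from each other more than the WT libraries did for each of the 6 genes. In RPKM itself this did not hold for Adam1a and Adam4. All 6 were lower in library 2 than in library 1, as were 90% of all genes in the table. For Adam24 and Adam26a, library 1 was 5.80 and 5.51 times above library 2. For Adam1a it was 1.83 times above, and for Adam32, Adam4 and Adam30 it was 1.35, 1.32 and 1.25 times above. The 2 testases therefore had larger ratios than the other 4 members, with the caveat that each value is a ratio of single libraries and has no error of its own. Their levels in library 2, 0.56 and 0.39 RPKM, are also near the smallest RPKM of the table, 0.2, at unknown depth. The size of these 2 ratios is thus uncertain.

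Set against the table, the log2 ratio of library 2 over library 1, with 1 added to RPKM, was -1.45 for Adam24 and -1.18 for Adam26a. The median over the 925 genes listed as lower was -0.75, with quartiles of -1.33 and -0.39. Adam24 lay beyond the lower quartile and Adam26a between it and the median. Adam1a (-0.64) and Adam32 (-0.43) lay between the median and the upper quartile, and Adam30 (-0.29) and Adam4 (-0.27) above the upper quartile. With a pseudocount of 0.1 the ratios of Adam24 (-2.34) and Adam26a (-2.20) both lay beyond the lower quartile, which was then -1.89, so the place of Adam26a depends on the pseudocount. Adam32 (-0.44) was then just above the upper quartile of -0.45. The same ratio between the WT libraries ranged from -0.07 for Adam30 to 0.18 for Adam1a.

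**Figure D2:**
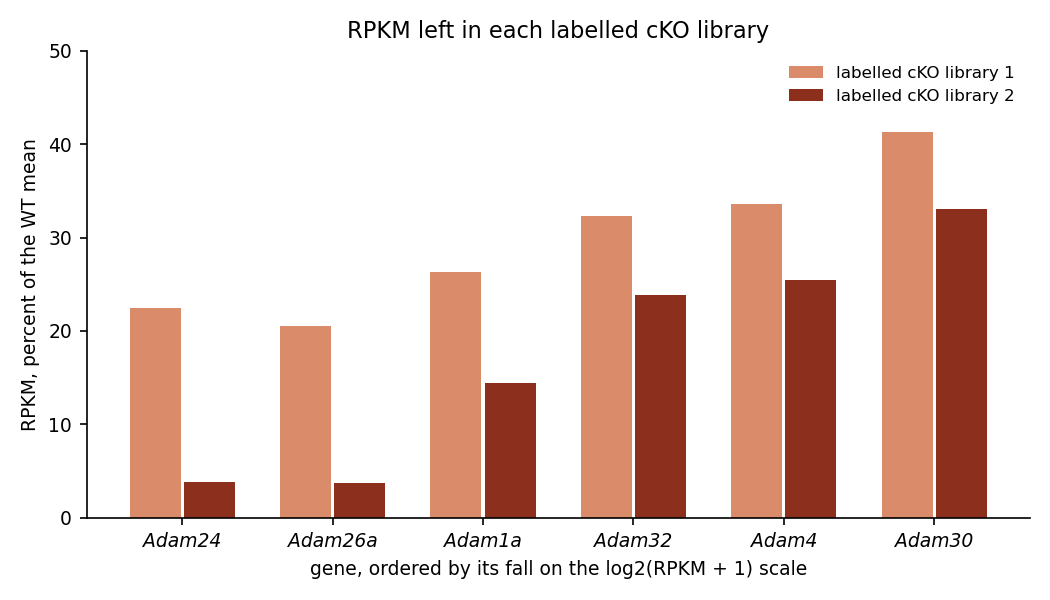
RPKM of the 6 Adam genes in labelled cKO library 1 (light bars) and library 2 (dark bars) as a percentage of the mean of the 2 WT libraries. Library 2 holds 3.87% for Adam24 and 3.73% for Adam26a, against 14.4% to 33.0% for the other genes, while library 1 runs from 20.6% to 41.3%.

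**Figure D3:**
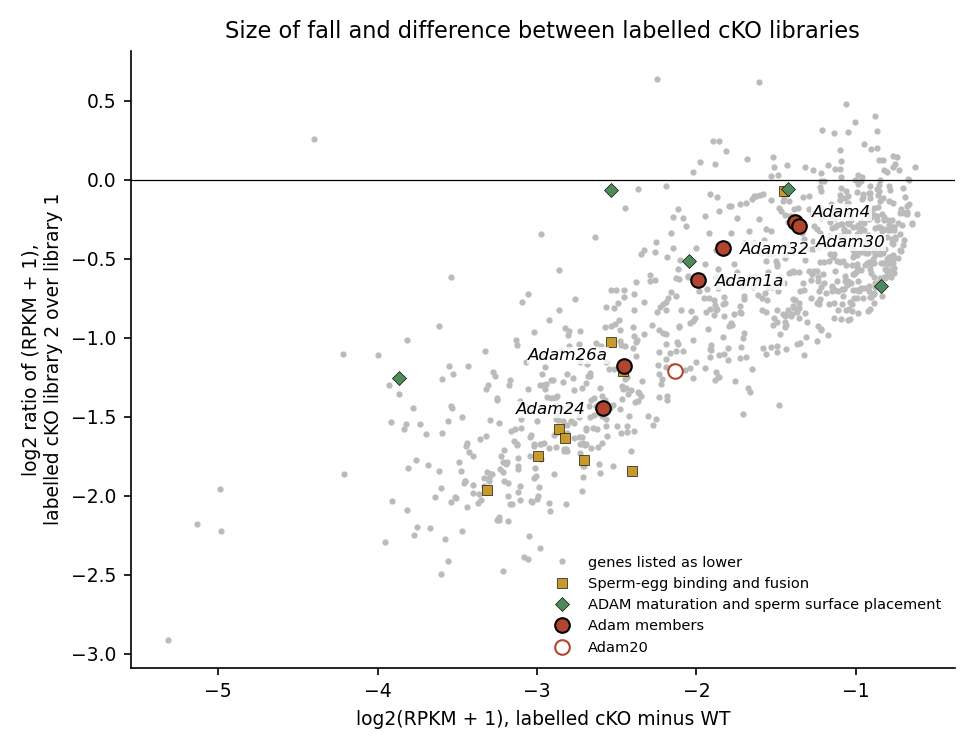
Each point is a gene listed as lower, with the limma difference on log2(RPKM + 1), labelled cKO minus WT, on the horizontal axis and the log2 ratio of labelled cKO library 2 over library 1 on the vertical axis. Adam24 and Adam26a sit lower left, near most sperm-egg genes (squares), Adam20 is the open circle, the maturation genes are diamonds, and Adam1a, Adam32, Adam4 and Adam30 sit nearer the line at 0. The axes share the labelled cKO libraries, so the slope of the cloud is partly built in.

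Adam20 was matched through the gene's older name and begins 111.1 kb beyond Adam24. It was at 2.47 and 0.50 RPKM in the labelled cKO libraries, against 8.85 and 9.17 RPKM in the WT libraries. It fell by limma (difference -2.13 ± 0.48 (SE), adjusted p = 0.0184). Its RPKM was 4.94 times higher in labelled cKO library 1 than in library 2, a ratio near those of Adam24 and Adam26a. As for those 2, its level in library 2 is near the smallest of the table. Its transcript aligned with Adam25 at 88.0% identity, so its reads may be shared, and its call was lost without WT library 2. Of the 4 Adam genes of the table on chromosome 8, these 3 thus had the steeper falls between the labelled cKO libraries, and Adam32, which ends 15726.3 kb before Adam24 begins, had not. Of the other 15 sperm and testis Adam genes listed for this work, among them Adam2 and Adam3, and of 11 widely expressed Adam genes, none is in the expression table, and their expression was not analysed here.

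Patterns most like those of the members were found by the distance between log2(RPKM + 1) values, centred on the WT mean, over the 4 libraries. Closest to Adam24 were Ace3 (distance 0.07), Gm20268 (0.09) and Atp6v1e2 (0.10), which encodes a subunit of a proton pump. Ace3 was at 3.91 and 0.80 RPKM in the labelled cKO libraries, against 16.2 and 16.4 RPKM in the WT libraries. The genes closest to Adam26a were Dcst1 (0.08), whose protein acts in sperm-egg fusion, 1700024G13Rik (0.09) and 1700028D13Rik (0.10). For Adam1a they were Pde1a (0.07), which encodes a cyclic nucleotide phosphodiesterase, Sgms2 (0.09) and 4931417G12Rik (0.09).

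Morn5 was among the 3 closest genes of both Adam30 (0.06) and Adam4 (0.08). It was at 156 and 126 RPKM in the labelled cKO libraries, against 365 and 365 RPKM in the WT libraries. Adam30 was followed by BC125332 (0.08) and Osbpl10 (0.08), and Adam4 was closest to Tulp2 (0.06), with Necab3 (0.08). Adam32 was nearest to 1700001K23Rik (0.06), Ttll9 (0.11) and 1700024P03Rik (0.12). With 4 libraries of 2 genotypes these distances describe the profile only.

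ADAM proteins of sperm pass through a maturation route in which chaperones of the endoplasmic reticulum fold them and other proteins bring them to the surface. Of 17 genes listed for that route, 5 are in the table, and 4 of the 5 fell in limma, against 83.9% of the table. Calr3, a testis chaperone that in the mouse is needed for ADAM3, was at 2.88 and 2.70 RPKM in the labelled cKO libraries, against 18.9 and 23.1 RPKM in the WT libraries (limma difference -2.53 ± 0.28 (SE), adjusted p = 0.0177). Ace, whose testis form affects the placing of ADAM3 in mouse sperm, was at 9.03 and 8.63 RPKM, against 23.7 and 27.1 RPKM in WT. Both of these genes were nearly equal in the labelled cKO libraries, unlike Adam24 and Adam26a.

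Prss37, a protease-like gene needed in the mouse for ADAM3 maturation, had the largest fall of the route, with 3.09 and 0.71 RPKM in the labelled cKO libraries, against 30.8 and 45.8 RPKM in the WT libraries (limma difference -3.87 ± 0.53 (SE), adjusted p = 0.0177). Pmis2, listed under the older name 4930479M11Rik, was at 4.82 and 3.07 RPKM, against 17.7 and 20.6 RPKM in WT. Cmtm2a, a membrane protein gene, was at 367 and 229 RPKM, against 515 and 526 RPKM in WT, and did not pass (limma difference -0.84 ± 0.35 (SE), adjusted p = 0.068). The median difference of the 5 was -2.05, against -1.59 over the table. Without WT library 1 or WT library 2, 3 and 2 of the 5 passed, against 39.3% and 35.7% of the table. The calls without labelled cKO library 1 or 2 carry no weight for these genes, since the spread in those fits came from the WT libraries alone.

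Of 17 genes listed for sperm-egg binding and fusion, 9 are in the table and all 9 fell in limma, against 83.9% of the table, with differences from -3.31 to -1.45 and a median of -2.70. With a pseudocount of 0.1, 8 of the 9 were called, against 77.4% of the table. Izumo1, which encodes the sperm protein that binds its receptor on the egg, was at 4.16 and 1.53 RPKM in the labelled cKO libraries, against 19.1 and 20.8 RPKM in the WT libraries. The sperm hyaluronidase gene Hyal5 was at 4.55 and 0.65 RPKM, against 22.4 and 23.9 RPKM in WT. Spam1, another hyaluronidase gene, had 4.41 and 0.58 RPKM, against 18.6 and 17.5 RPKM in WT. The log2 ratio of labelled cKO library 2 over library 1, with 1 added to RPKM, lay between -1.97 and -1.03 in every one of them but Spaca6 (listed as Ncrna00085; -0.07), which was at 5.16 and 4.85 RPKM, against 15.4 and 15.4 RPKM in WT.

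**Figure D4:**
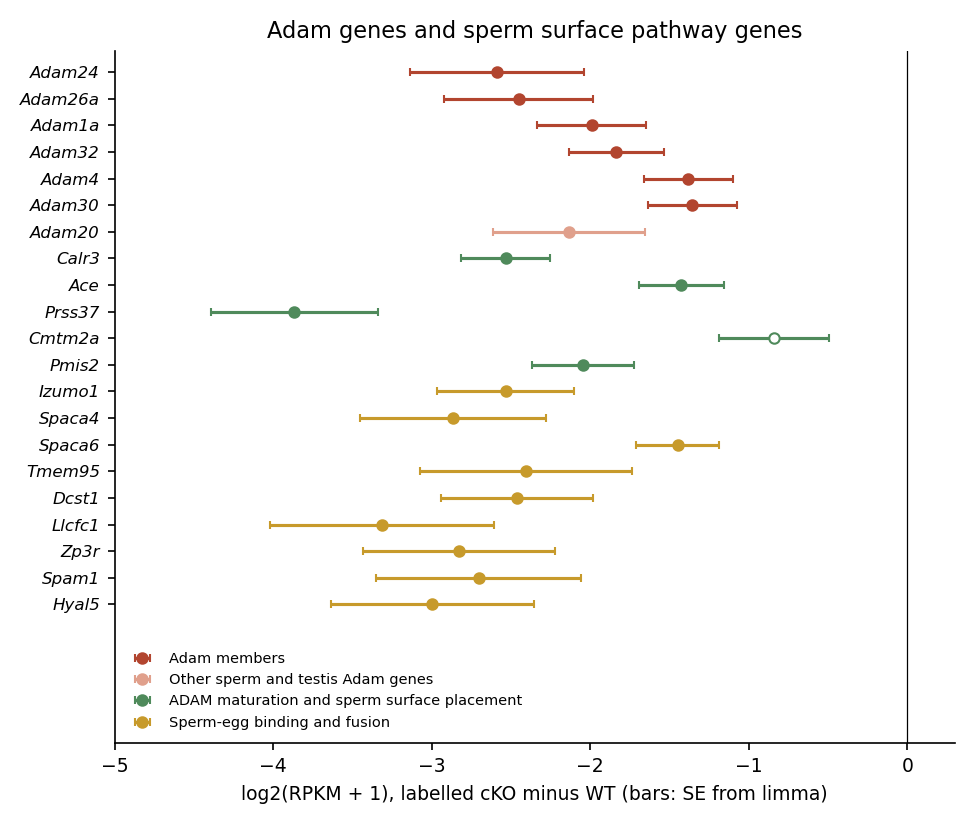
Limma differences on log2(RPKM + 1), labelled cKO minus WT, with SE bars (2 libraries per genotype), for the 6 Adam genes, Adam20, the 5 maturation genes and the 9 sperm-egg genes of the table. Filled points passed at an adjusted p of 0.05. The open point, Cmtm2a (-0.84), did not, and Prss37 (-3.87) lies furthest to the left.

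Genes that mark spermatids moved in the same direction. Of 13 spermatid markers 12 are in the table, and their summed level was 161 and 34.1 RPKM in labelled cKO libraries 1 and 2, against 1428 and 2017 RPKM in the WT libraries. All 12 fell in limma, against 83.9% of the table, and their median log2 ratio of labelled cKO library 2 over library 1, with 1 added to RPKM, was -1.89, against -0.53 for the 6 Adam genes. Of 9 spermatocyte markers 2 are in the table, with sums of 153 and 83.0 RPKM in labelled cKO, against 262 and 268 RPKM in WT. Pgk2 was called lower (limma difference -1.52 ± 0.40 (SE), adjusted p = 0.0251). Ccna1 did not pass (limma difference -0.91 ± 0.38 (SE), adjusted p = 0.0695). For macrophages 3 of 6 markers are present, summing to 54.7 and 69.0 RPKM, against 29.0 and 29.9 RPKM in WT. All 3 were called higher by limma, as were 19 of all 988 genes, but Lyz2 made up most of the sum. Between labelled cKO library 1 and library 2, Lyz2 rose from 42.8 to 59.3 RPKM. Cd74 instead went from 8.63 down to 6.78 RPKM, and H2-Aa from 3.29 down to 2.91 RPKM. Of the Leydig cell, Sertoli cell and myoid markers, 1 each is in the table. The Leydig cell gene Hsd3b1 was at 76.5 and 74.0 RPKM in labelled cKO, against 41.2 and 46.4 RPKM in WT (limma difference 0.77 ± 0.27 (SE), adjusted p = 0.0468), and without WT library 1, or without WT library 2, no gene of the table was called higher. The Sertoli cell gene Inha was at 99.6 and 138 RPKM, against 70.2 and 71.7 RPKM in WT, and did not pass (limma adjusted p = 0.0727). Actg2, 1 of 4 genes listed as myoid markers, was at 6.77 and 6.56 RPKM, against 32.7 and 35.4 RPKM in WT. It was called lower (limma difference -2.19 ± 0.26 (SE), adjusted p = 0.0177). The other listed myoid markers are not in the table, so a change of myoid cells cannot be read from this gene. The part of all these markers in the values of the Adam genes was not tested. Whole testes were sequenced, so fewer cells of a type and less RNA per cell cannot be told apart.

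The splicing table of the study, which gives 1 change in percent spliced in (ΔPSI, in percentage points) per event, holds events for 1 of the 6 members, Adam32. No value per library, coverage or p accompanies them, and the headers do not say which genotype was subtracted, so the sign carries no direction here. The 2 events of Adam32 are an alternative 5′ splice site on chromosome 8 (mm9, 25962649 to 25962750, minus strand) with a ΔPSI of -5 and a set of tandem cassette exons (mm9, 25981158 to 25989301) with a ΔPSI of 4. Both are small for the table, where the median absolute ΔPSI was 11 over 1223 events and 9 over 55 alternative 5′ splice sites. None is listed for Adam1a, Adam4, Adam24, Adam26a or Adam30.

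The interval of the alternative 5′ splice site is 102 bases long, and exactly 1 annotated Adam32 exon has that length (GRCm38, chromosome 8, 24852177 to 24852278, minus strand). GENCODE M21 also gives that exon a short form of 39 bases that begins at the same place. The sequence is shown to make the choice visible, with the short form in lower case and the 63 bases present only in the long form in capitals.
Adam32 exon: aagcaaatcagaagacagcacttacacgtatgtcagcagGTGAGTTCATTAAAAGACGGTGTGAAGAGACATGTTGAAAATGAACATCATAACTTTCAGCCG
The capitals open with GTGAGT, letters common at the start of introns, at the point where the short form ends. The long form is coding in full in 1 annotated protein-coding transcript of that gene, the 63 bases are divisible by 3, and they hold no stop codon in that frame. GENCODE M21 also places the long form in a transcript of the class nonsense-mediated decay, and the short form in other protein-coding transcripts. The exon was matched by its length and not by its position, since the builds differ.

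Adam3, whose protein mouse sperm need to pass into the oviduct, has no value in the expression table. It had a cassette exon of 77 bases (mm9, chromosome 8, 25825998 to 25826074, minus strand) with a ΔPSI of 5. Its length is that of 1 annotated exon, coding in full. The other 2 events listed for Adam3 had a ΔPSI of 0.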

How the data were processed

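Per the labels' protocols, paired-end ScriptSeq libraries were made from testis RNA of 4 mice. The authors deposited RPKM per library and the mean RPKM of each genotype, a log2 fold change and an adjusted p-value per gene, and 1 ΔPSI (percentage points) for each splicing event, per the file headers. The submitters' processing notes name the builds mm9 and mm10. Aligner, counter and filters: not given in the sources used here; depth is unknown. The log2(RPKM + 1) values of all 988 genes entered a limma 3.58.1 fit (R 4.3.3) with no block, Benjamini-Hochberg adjusted at 0.05. The code was also run on simulated data with the same spread in both genotypes and a minority of genes changed. These data differ from that on both points, so the run does not vouch for the fit here. The 2 mice per genotype give a smallest exact two-sided permutation p of 0.333. Named genes were the 6 Adam genes, genes of fixed pathway and marker lists that are in the table, and the 3 genes nearest to each Adam gene. The members and lists were chosen with earlier results of these data known. Older symbols were matched through RefSeq synonyms. Gene models and sequences came from GENCODE M21, and were compared with BLAST 2.17.0 and MAFFT 7.526, in Python 3.11.15 with Biopython 1.88. Alternatives were another pseudocount, a filter, a block, a trended prior and leaving out each library.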

Additional observations from a re-analysis of the deposited data

How the results depend on the processing

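The Adam genes stayed lower in labelled cKO under all 9 alternatives. This direction could not have changed, since every labelled cKO value of these genes lay below every WT value. Leaving out 1 library moved the number called lower between 2 and 6 of 6. Without WT library 1 or without WT library 2 only Adam24 and Adam26a were called, and the table had 388 and 353 lower genes in place of 829. The adjusted p in limma without WT library 1 was 0.0507 for Adam1a, 0.192 for Adam4, 0.228 for Adam30 and 0.0856 for Adam32. Without WT library 2 it was 0.0826, 0.235, 0.216 and 0.0975 for the same genes. In these fits the lone WT library is assumed to vary like the labelled cKO ones. Where a labelled cKO library was left out, the spread came from the WT libraries alone, so the calls of those fits carry no weight. Over the fits that leave out a library, the limma difference ranged from -2.31 to -1.67 for Adam1a, -1.51 to -1.25 for Adam4, -3.31 to -1.87 for Adam24, -3.04 to -1.86 for Adam26a, -1.50 to -1.21 for Adam30 and -2.05 to -1.62 for Adam32. With a pseudocount of 0.1 the log2 ratio of labelled cKO library 2 over library 1 was -0.84 for Adam1a, -0.38 for Adam4, -2.34 for Adam24 and -2.20 for Adam26a. The libraries share only a replicate number across genotypes (correlation of deviations -0.331 over 988 genes). The replicate block gave 6 of 6 called lower and 622 lower genes in the table. A crossed block, chosen after seeing the data, gave 6 and 758. A mean RPKM of at least 1 removed no gene.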

Other observations

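Adamts5, a secreted protease gene of the related ADAMTS family that cleaves matrix proteoglycans, was singled out after its values were seen because it is the other gene of the table whose symbol starts with Adam. Its RPKM was 5.24 in the first and 11.3 in the second labelled cKO library, against 4.02 and 3.53 RPKM in the WT libraries. Its adjusted p in the authors' deposited table is 0.0081, at a log2 fold change of 1.13. It did not pass in limma (difference 0.88 ± 0.42 (SE), adjusted p = 0.0977), and its level in labelled cKO library 2 was above that in library 1, opposite to all 6 Adam genes.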
